A study of Mus musculus with 28 samples.

Results

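Splenic dendritic cells from wild-type mice treated with angiotensin II (Ang II) were compared with the same cells given vehicle. Ang II is the peptide effector of the renin-angiotensin system, and dendritic cells are the antigen-presenting cells that take up, process and display antigen to T cells. The comparison uses 11 of the 28 arrays of the series: the 4 wild-type Ang II arrays and the 7 wild-type vehicle arrays, which the sample titles call Sham. All of these mice were C57BL6/J wild type and 3 months old, and the material was total RNA of primary dendritic cells from spleen. The other 17 arrays entered the fit but not the comparison. They comprise 4 arrays of wild-type cells given Ang II with 2-hydroxybenzylamine (2-HOBA), a scavenger of reactive lipid aldehydes, and 6 given Ang II with hydralazine and hydrochlorothiazide, a vasodilator and a diuretic. A further 7 arrays carry cells of mice that lack NOX2 (gp91phox, encoded by Cybb), of which 3 received vehicle and 4 Ang II. Those 4 are titled Ang I but described as treated with Ang II, and were taken as Ang II, so every knockout difference and genotype interaction rests on that reading. The series text describes the agents as applied after the cells were isolated, whereas its title concerns hypertension. The dose, the duration, the number of mice pooled per array and the cell sort are not given in the sources used here. Replicates are labelled biological, with no statement of what separates one from another, so the p-values measure the spread between these arrays.

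As background, Ang II acts mainly through the type 1 receptor, and in phagocytes that signal can activate the NOX2 NADPH oxidase, which makes superoxide from a membrane core of Cybb and Cyba and cytosolic subunits such as Ncf1. Oxidised lipids form reactive aldehydes that modify proteins, and 2-HOBA captures them. Spleen holds several kinds of dendritic cell, among them the cross-presenting cDC1, the cDC2 that favour CD4 T cells, and the interferon-producing plasmacytoid cells, beside red pulp macrophages that clear old red cells and recycle their iron.

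The values are log2 levels, in which 1 unit is a 2-fold ratio. A gene was represented by a probe set with exactly 1 symbol, or by the one of highest mean over all arrays where it had several, and 10452 genes that exceeded a log2 level of 5 on 3 or more arrays were tested. One array stood apart. Over all probe sets the array labelled vehicle replicate 2 correlated with the remaining arrays of the series at 0.852 on average, against 0.932 to 0.956 for the other 10 arrays compared here. Its interquartile range over all probe sets was 1.92 log2 units, against 2.46 to 3.03. Cybb was also low on it: the level was 6.34 on that array, at least 8.35 on the other 20 wild-type arrays, and between 6.41 and 7.18 on the 7 NOX2 knockout arrays. Some other genes on that array lay outside both the knockout range and the range of the other 10 wild-type arrays compared. Cyba was 6.29 against at least 7.83 on knockout arrays, Cd80 3.79 against at least 5.14, and Tmem205 6.40 against at most 5.50. On the other 10 wild-type arrays compared, Cyba was at least 7.66, Cd80 at least 5.11 and Tmem205 at most 5.60. Why the array differs was not tested. Results are therefore given with and without the array labelled vehicle replicate 2, and where a list or gene has a bare number in brackets after its value or count, the bracketed one is without that array. Cells of the labelled kind were present by their markers on all 11 arrays. The 10 tested genes shared by dendritic cells, which include Flt3, the receptor that drives their development, averaged 7.42 to 8.16 on the 6 other vehicle arrays and 7.46 to 7.90 with Ang II, and 6.95 on vehicle replicate 2. Genes of other spleen cells were also measured: 13 of 14 tested B cell genes were above 5 on all 11 arrays. Their mean level was 8.0 to 8.66 on the 6 vehicle arrays and 7.79 to 8.78 with Ang II, which is not set against that of other probe sets. In such bulk samples fewer cells of a type and less RNA per cell cannot be told apart.

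The 11 arrays were also split into 2 sets that the labels do not name. The first principal component of 12146 probe sets without a gene symbol carried 31.0% of their variance over the series. Vehicle replicate 2 lay far from the rest, at -76.02, and was left aside in choosing the split. The widest gap among the other arrays compared lay between -24.93 and -0.32. Vehicle replicates 1, 2 and 3 lay in set 1 with Ang II replicates 1 and 2. The later-numbered arrays, vehicle 4 to 7 and Ang II 3 and 4, lay in set 2. Whether these sets are technical was not tested. For many of the leading genes and lists the differences within each set are printed beside the main ones, those of set 1 without vehicle replicate 2. In the last section, values of set 1 include that array unless stated. The other arrays were assigned by the middle of that gap. The 6 with hydralazine and hydrochlorothiazide, at 56.15 to 71.72 and above every other array, were put in set 2. All 7 knockout arrays fell in set 1 and the 4 with 2-HOBA in set 2. That split is less clean, since 2 knockout vehicle arrays (-21.03 and -23.77) and 2 arrays with 2-HOBA (-10.39 and -7.58) lay inside the gap.

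No gene passed the test for a difference between Ang II and vehicle in wild-type cells. With all 11 arrays, limma's moderated test with Benjamini-Hochberg adjustment called 0 of 10452 genes at an adjusted p below 0.05, and the smallest adjusted p was 1.0. Without vehicle replicate 2 it again called 0 genes, with a smallest adjusted p of 0.441. At an unadjusted p below 0.05 there were 266 genes, 2.54% of those tested, with 102 higher (0.976%) and 164 lower (1.57%) with Ang II. Leaving out vehicle replicate 2 gave 893 such genes (8.54%), with 183 higher (1.75%) and 710 lower (6.79%). Of the 266 genes, 228 were at an unadjusted p below 0.05 in the same direction without that array, 81 higher and 147 lower. In simulated data of the same size the test recovered 84% of differences of 1 log2 unit and 99% of differences of 2, with 14 false calls. The simulated noise was independent between genes and had the same spread on every array, with no outlying array and no array sets. These shares therefore need not hold for the real arrays.

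The lean towards lower levels depended on that array and on the centring of the arrays. Over all tested genes the median difference was 0.00 with 7 vehicle arrays and -0.09 with 6, and the share of genes with a difference below 0 was 50.3% and 67.0%. When each array was shifted to a common median over the tested genes, the fit without vehicle replicate 2 gave 784 genes (7.50%) at an unadjusted p below 0.05, 427 higher (4.09%) and 357 lower (3.42%), and 47.3% of all genes lay below 0. Quantile normalization gave 775 (7.41%) in that fit, 306 higher (2.93%) and 469 lower (4.49%), with 53.8% of all genes below 0. Differences without that array are accordingly read beside the value of -0.09.

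A description that needs no test is whether the groups overlap. All 4 Ang II arrays lay above or below all 7 vehicle arrays in 24 genes (0.230%), 9 higher (0.0861%) and 15 lower (0.144%), and 4 of the 24 had both group means below 5. Without vehicle replicate 2 the count was 86 (0.823%), 15 higher (0.144%) and 71 lower (0.679%).

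Among genes higher with Ang II, Ctse, the endosomal aspartic protease cathepsin E, had the largest difference of the 10 with the smallest unadjusted p. Its log2 level was 7.91, 8.16, 9.67 and 8.62 on Ang II replicates 1 to 4, and 7.82, 6.37, 7.18, 6.75, 7.70, 6.77 and 7.03 on vehicle replicates 1 to 7. Every Ang II array was above every vehicle array, but the lowest Ang II and the highest vehicle array differed little. The difference was 1.5 (SE 0.41, unadjusted p = 0.00104, adjusted p = 1.0), and 1.38 without vehicle replicate 2 (SE 0.42, adjusted p = 0.441). Within set 1, without vehicle replicate 2, it was 0.54, and within set 2 it was 2.08.

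Ifi208, of the interferon-inducible p200 family, had the smallest unadjusted p of the higher genes. Its level was 4.97, 4.78, 6.16 and 5.67 with Ang II and 3.62 to 5.01 with vehicle (median 4.63). The 2 Ang II arrays of set 1 lay inside the vehicle range and the 2 of set 2 above it. The difference was 0.97 (SE 0.25, unadjusted p = 0.000451, adjusted p = 1.0) and 0.84 without vehicle replicate 2 (SE 0.23, adjusted p = 0.441). Within set 1, without vehicle replicate 2, it was 0.62, and within set 2 it was 1.21. With the array set as a block, its adjusted p of 0.0854 was the smallest of any gene in that fit. The knockout cells had a like difference of 0.99, and the interaction with genotype was -0.02 (unadjusted p = 0.963). Of 21 tested genes of the interferon-stimulated list 8 were higher and 13 lower, beside 50.3% of all genes below 0, with a median of -0.07 (-0.16). At an unadjusted p below 0.05 there were 0, beside 2.54% of all genes, or 1 without vehicle replicate 2, beside 8.54%. Rsad2, an antiviral enzyme, differed by 0.47, with -0.43 within set 1 and 1.14 within set 2, and Isg20, an exonuclease, by 0.39, with -0.43 and 1.01.

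Because Ifi208 carries an interferon-type name, its promoter is shown with a match to the core of the interferon-stimulated response element, GAAA, any 2 bases and GAAA again, in capitals. The sequence is RefSeq's, build GRCm38.p6, chr1:173673415-173673714, plus strand, from 250 bases before the start site to 50 after it, and the match starts at -58. Of 32851 promoters of the same 300 bases, 1131 (3.4%) hold that motif on either strand.
Ifi208 promoter: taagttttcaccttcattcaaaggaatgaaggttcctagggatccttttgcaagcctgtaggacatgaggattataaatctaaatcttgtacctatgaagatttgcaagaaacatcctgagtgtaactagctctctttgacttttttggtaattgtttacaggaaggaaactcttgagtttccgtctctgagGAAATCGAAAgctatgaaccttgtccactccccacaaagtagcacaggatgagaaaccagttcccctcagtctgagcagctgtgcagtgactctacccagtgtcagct

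Btbd6, an adaptor of cullin ubiquitin ligases, had a small difference over a narrow spread. Its level was 5.83, 6.05, 5.61 and 5.54 with Ang II and 4.70 on vehicle replicate 2, with the other 6 vehicle arrays between 5.27 and 5.38. No Ang II array overlapped the vehicle arrays. The difference was 0.53 (SE 0.16, unadjusted p = 0.00286, adjusted p = 1.0) and 0.44 without vehicle replicate 2, 0.61 within set 1 without that array and 0.26 within set 2. The interaction with genotype was 0.68 (unadjusted p = 0.0126, adjusted p = 1.0), since the knockout difference was -0.15. For a gene chosen by its wild-type difference, the interaction contains that difference, so nothing further is read from it here or below.

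The other 7 of the 10 higher genes had differences of 0.47 to 1.28. They were Rhd, a red cell membrane protein (1.28), Mgst3, a microsomal glutathione transferase (1.25), Tnnt3, a troponin (0.62), Upf1, the helicase of nonsense-mediated decay (0.54), Prelp, a matrix proteoglycan (0.49), Gys1, glycogen synthase (0.49), and Tgfb1i1, a focal adhesion adaptor (0.47). Their groups overlapped, and their adjusted p was 1.0. Without vehicle replicate 2 they ran from 0.44 to 1.18. Rhd differed by 0.29 within set 1 and 1.92 within set 2, and Upf1 by 0.85 and 0.20. Mgst3 was 4.84, 5.97, 6.23 and 4.87 with Ang II, against 3.49 to 5.32 with vehicle.

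Of the genes lower with Ang II, Pcyox1, a lysosomal enzyme that degrades prenylated cysteines, had the smallest unadjusted p. It was 5.53, 4.20, 4.96 and 5.12 with Ang II and 5.61, 6.56, 5.90, 5.75, 5.53, 5.74 and 6.35 with vehicle. Ang II replicate 1 reached the lowest vehicle array, and the other 3 lay below it. The difference was -0.97 (SE 0.25, unadjusted p = 0.000487, adjusted p = 1.0), -0.86 without vehicle replicate 2 (adjusted p = 0.441), -0.89 within set 1 without that array and -0.81 within set 2. In knockout cells it was 0.21, and the interaction was -1.18 (SE 0.39, unadjusted p = 0.00512, adjusted p = 1.0).

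Clec10a, a galactose-binding C-type lectin of dendritic cells and macrophages, was dim. It was 3.49, 2.16, 3.59 and 3.52 with Ang II and 3.62 to 4.92 with vehicle (median 4.30). The groups did not overlap, but both means, 3.19 ± 0.69 (SD, n = 4) and 4.24 ± 0.41 (SD, n = 7), were below the level of 5 used as the filter. The difference was -1.05 (SE 0.27, unadjusted p = 0.000576, adjusted p = 1.0) and -1.04 without vehicle replicate 2, -1.57 within set 1 and -0.58 within set 2. The interaction was -1.29 (unadjusted p = 0.00505, adjusted p = 1.0), with a knockout difference of 0.25.

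Tmem11, a mitochondrial inner membrane protein, was better expressed. It was 7.11, 6.75, 7.19 and 7.15 with Ang II and 7.39 to 7.70 with vehicle (median 7.51). The groups did not overlap, and the difference was -0.48 (SE 0.14, unadjusted p = 0.0015, adjusted p = 1.0), -0.49 within set 1 without vehicle replicate 2 and -0.40 within set 2. Bmpr2, the type 2 receptor of bone morphogenetic proteins, also did not overlap, at 4.28 to 4.75 with Ang II and 4.79 to 5.64 with vehicle, a difference of -0.66 (-0.69), with -0.43 within set 1 and -0.77 within set 2. The remaining 6 of the 10 lower genes ran from -0.61 to -0.87. They were Ubd, a ubiquitin-like modifier (-0.87), Tmem273 (-0.85), Tnfrsf21, a death receptor (-0.75), Rnf103, a ubiquitin ligase (-0.71), Slc31a1, a copper importer (-0.71), and Tmem205 (-0.61). Tmem273 and Tmem205 did not overlap between the groups. These 6 ran, with vehicle replicate 2 left out, from -0.47 to -0.92. Ubd differed by only -0.07 within set 1, against -1.41 within set 2, and the other 5 by -0.36 to -0.93 and -0.50 to -1.11.

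**Figure D1:**
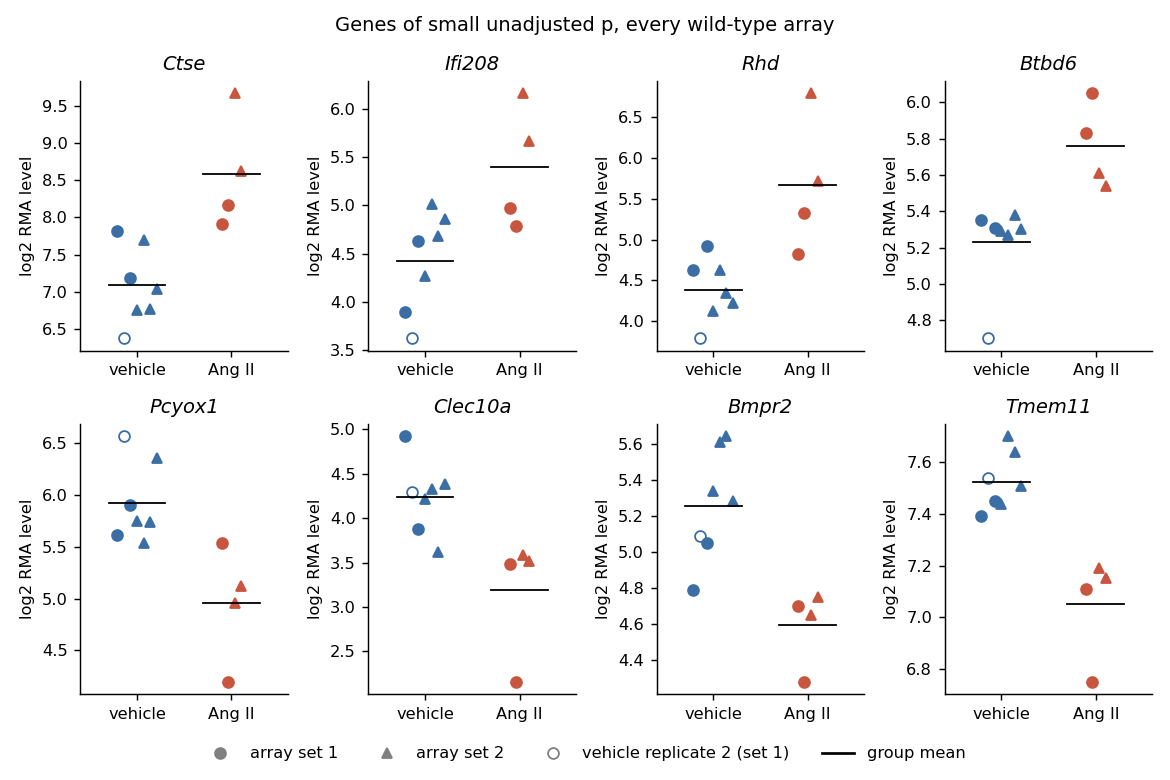
Log2 RMA level of 8 genes on each of the 7 vehicle (blue) and 4 Ang II (red) wild-type arrays, with circles for array set 1, triangles for array set 2, the open circle for vehicle replicate 2 and a line at the mean of all arrays of the group. The groups did not overlap for Ctse, Btbd6, Clec10a, Bmpr2 and Tmem11, and in Ctse, Ifi208 and Rhd the 2 Ang II arrays of set 2 are the highest.

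Leaving out vehicle replicate 2 brought further genes among those of smallest unadjusted p, each with an adjusted p of 0.441 in that fit. The higher ones were led by Nlgn2, a synaptic adhesion protein, which was 5.44, 5.18, 4.83 and 5.23 with Ang II and 4.46 to 4.81 on the 6 vehicle arrays, a difference of 0.51 (SE 0.12, unadjusted p = 0.000228). On vehicle replicate 2 it was 5.46, above all 4 Ang II arrays, and the difference with that array was 0.39. Macrod2, which removes ADP-ribose from proteins, differed by 1.22 without that array, where it reached 9.59, and by 0.69 with it. Snhg15, a non-coding RNA, behaved likewise, at 9.10 on that array and with differences of 0.82 and 0.43.

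Lower genes in that fit were led by Rnf103 (-0.80, unadjusted p = 0.000181), then Iars2, a mitochondrial isoleucyl-tRNA synthetase (-0.56), Ccpg1, a receptor for degradation of the endoplasmic reticulum (-0.73), and P2ry13, an ADP receptor (-1.16). Ccpg1 was 7.15 to 7.28 with Ang II and 7.43 to 8.47 on the 6 vehicle arrays, which did not overlap. The array left out, at 6.12, was lower than every Ang II array. P2ry13 was 5.61, 4.58, 5.51 and 6.26 with Ang II and 5.89 to 7.23 on the 6 vehicle arrays, so that Ang II replicate 4 overlapped them. Ddx1, an RNA helicase (-0.69), Kiz, a centrosome protein (-0.59), Qars, the glutaminyl-tRNA synthetase (-0.54), and Ptprm, a receptor phosphatase (-0.98), did not overlap the 6 vehicle arrays.

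The NADPH oxidase and its Ang II input gave no difference beyond the spread between arrays. Cybb, the catalytic subunit, was 8.48, 8.35, 8.99 and 9.26 with Ang II and 8.93, 6.34, 8.51, 9.24, 9.57, 9.26 and 9.32 with vehicle. Apart from vehicle replicate 2, Ang II replicates 1 and 2 lay just below the vehicle range and replicates 3 and 4 within it. The difference was 0.03 (SE 0.36, adjusted p = 1.0) with that array and -0.37 without it (SE 0.21, unadjusted p = 0.0816, adjusted p = 0.603), a change of sign. Cyba, its membrane partner, likewise went from 0.15 (SE 0.30) to -0.15 (SE 0.20). Ncf1, the cytosolic organiser, differed by 0.24 (SE 0.17) and 0.13 (SE 0.15). Over the 9 tested oxidase genes the median was 0.03, and -0.15 without that array, with 0 members at an unadjusted p below 0.05 in either fit.

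Of the 15 renin-angiotensin genes, 5 were tested, 6 lay below the filter and 4 had no single-symbol probe set. Agtr1a, the main type 1 receptor, did not pass the filter, with levels of 4.22 to 5.13 on the 11 arrays. Ace, the converting enzyme, differed by -0.40 (-0.55), and the median of the 5 was -0.19, or -0.43 without vehicle replicate 2. Without it Prcp, a carboxypeptidase that degrades Ang II (-0.46, unadjusted p = 0.0368), and Atp6ap2, the prorenin receptor (-0.43, unadjusted p = 0.0286), had adjusted p of 0.559 and 0.555.

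The 6 tested genes of salt sensing and sodium transport had a median of -0.34 (-0.47), and 5 of them were lower (6), beside 50.3% of all genes (67.0%). At an unadjusted p below 0.05 there was 1 (3), in the lower direction, beside 1.57% of all genes (6.79%). The median was -0.16 within set 1 and -0.76 within set 2. Atp1b1, the beta subunit of the sodium pump, was 5.4, 5.81, 5.94 and 6.08 with Ang II and 5.94, 5.80, 6.13, 6.57, 6.65, 6.84 and 6.84 with vehicle. Ang II arrays overlapped only the vehicle arrays of set 1. The difference was -0.59 (SE 0.22, unadjusted p = 0.0114, adjusted p = 1.0), -0.69 without vehicle replicate 2, -0.43 within set 1 without that array and -0.71 within set 2. Sgk1, the kinase that salt and aldosterone induce, differed by -0.43 (-0.55), or -0.08 within set 1 without vehicle replicate 2 and -0.81 within set 2. Slc12a2, the sodium-potassium-chloride cotransporter, was -0.63 (-0.98), with -0.21 within set 1 and -1.26 within set 2.

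Cytokine and costimulation genes did not pass either. Il1b, the pyrogenic cytokine, was 8.79, 7.14, 7.56 and 7.09 with Ang II and 8.60, 6.83, 8.90, 9.19, 9.08, 7.35 and 7.49 with vehicle. Its vehicle values were wide, with replicates 2, 6 and 7 near the lower Ang II arrays, and the difference was -0.56 (SE 0.35) and -0.79 without vehicle replicate 2 (SE 0.32, adjusted p = 0.535), with -0.78 within set 1 and -0.95 within set 2. Tnf differed by 0.20 (SE 0.20), or 0.09 without that array. Il6 and Il23a, cytokines that favour Th17 cells, were below the filter, at 1.79 to 2.92 and 3.51 to 4.71 on the 11 arrays. Cd80 and Cd86, the ligands of CD28 on T cells, differed by -0.24 (SE 0.32) and -0.19 (SE 0.29), and Cd86 by -0.31 without vehicle replicate 2. On vehicle replicate 2 Cd80 was 3.79, far below the range of 5.69 to 6.66 of the other 6 vehicle arrays, and without it the difference was -0.56 (SE 0.21, adjusted p = 0.482). The 16 tested genes of the cytokine list had a median of -0.14 (-0.29), and the 12 of costimulation -0.12 (-0.12). With all arrays 0 genes of either list were at an unadjusted p below 0.05, and without vehicle replicate 2 there were 4 of 16 and 3 of 12, all lower, beside 6.79% of all genes in that direction. The cytokine median was -0.02 within set 1 and -0.30 within set 2.

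**Figure D2:**
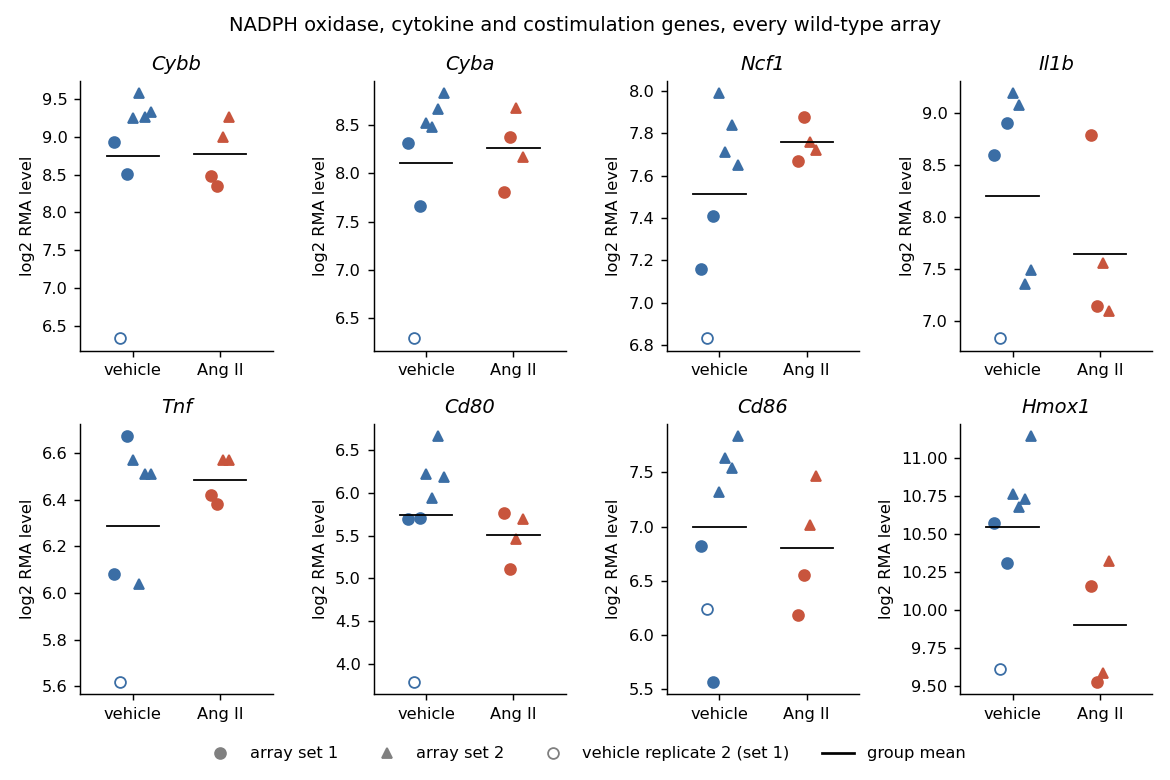
Log2 RMA level of Cybb, Cyba, Ncf1, Il1b, Tnf, Cd80, Cd86 and Hmox1 on each wild-type array, with the same symbols as for the genes of small p and a line at each group mean. The groups overlap in every panel, and vehicle replicate 2 (open circle) is the lowest vehicle array in all panels but that of Cd86.

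Antigen presentation genes lay near 0. The 12 tested genes of the class II pathway had a median of -0.04, with Ctss, the protease that trims the invariant chain, at -0.22 (-0.51) and Ciita, the master regulator, at 0.16 (0.04). The 14 of the class I pathway had a median of -0.02, with Nlrc5, its transactivator, at -0.34 (-0.36). Without vehicle replicate 2 these medians were -0.14 and -0.16, beside the -0.09 of all genes. At an unadjusted p below 0.05 there were 1 of 12 and 2 of 14 genes, all lower, beside 6.79% of all genes. Nothing is read from these counts. For dendritic cell markers the median was -0.05 over 15 cDC1 genes, -0.05 over 13 cDC2 genes and 0.01 over 10 shared genes, and -0.08, -0.17 and -0.14 without that array. The cDC2 median was 0.11 within set 1 and -0.47 within set 2, where 10 of 13 were lower, beside 65.5% of all genes. Without vehicle replicate 2, 4 of the 13 cDC2 genes were at an unadjusted p below 0.05 in the lower direction, beside 6.79% of all genes, against 1 with it, beside 1.57%.

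Red pulp macrophage genes had the lowest median of any list, whereas the 4 tested marginal zone macrophage genes had one of -0.07 (-0.15). All 17 red pulp genes were tested, and all 17 had a lower mean with Ang II. Their median difference was -0.68 beside 0.00 for all genes, and 8 of 17 were at an unadjusted p below 0.05, against 1.57% of all genes in that direction. Without vehicle replicate 2 the median was -0.88 beside -0.09, with 17 of 17 lower and 12 at an unadjusted p below 0.05, against 6.79%. No member passed adjustment, with a smallest adjusted p of 0.441 in that fit, and in none did the groups separate completely. Common centring and quantile normalization without that array left the median at -0.78 and -0.77. This list, like the others, was chosen with earlier results of these data known, and its members were read on the same arrays. Its counts and medians are therefore a description and support nothing.

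Trf, transferrin, had the smallest unadjusted p of these genes. It was 7.48, 7.20, 7.59 and 8.32 with Ang II and 8.29, 7.32, 7.69, 8.64, 8.95, 9.14 and 9.64 with vehicle. Within each array set the Ang II arrays were below the vehicle arrays of that set, except vehicle replicate 2. The difference was -0.88 (SE 0.33, unadjusted p = 0.0126, adjusted p = 1.0), -1.08 without vehicle replicate 2 (SE 0.30, adjusted p = 0.441), -0.65 within set 1 without that array and -1.14 within set 2.

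Mertk, a receptor tyrosine kinase that engulfs apoptotic cells, was 6.10, 5.84, 5.60 and 6.62 with Ang II and 6.51, 6.20, 6.07, 7.01, 7.02, 7.90 and 8.37 with vehicle. The vehicle arrays of set 1 overlapped the Ang II arrays and those of set 2 lay above them. Its difference was -0.97 (SE 0.39, unadjusted p = 0.0179, adjusted p = 1.0), -1.11 without vehicle replicate 2, -0.32 within set 1 and -1.46 within set 2. Vcam1, an adhesion molecule of red pulp macrophages and stroma, was 8.56, 8.27, 8.56 and 9.55 with Ang II and 8.31 to 10.57 with vehicle (median 9.82), a difference of -0.90 (SE 0.37), or -1.12 without vehicle replicate 2, -0.78 within set 1 and -1.14 within set 2. Itgad, an integrin of red pulp macrophages, was 6.12 to 6.82 with Ang II and 6.50 to 8.32 with vehicle, a difference of -0.84 (SE 0.32), or -0.93 without that array, -0.31 within set 1 and -1.25 within set 2. Slc40a1, the iron exporter ferroportin, differed by -0.88 (-1.18), with -0.42 within set 1 and -1.46 within set 2, and Hmox1, which breaks down haem, by -0.64 (SE 0.32, unadjusted p = 0.0505), or -0.80 without vehicle replicate 2.

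Members of the list were not equally low. C1qa, a chain of complement C1q, differed by -0.96 (unadjusted p = 0.0369), or -1.20 without vehicle replicate 2, while C1qc, another chain of the same protein, differed by -0.51 (unadjusted p = 0.15), or -0.66, and the range over the 17 genes ran from -0.97 to -0.02. The median over the members was -0.42 in set 1 without vehicle replicate 2, with 15 of 17 lower beside 52.1% of all genes, and -0.90 in set 2, with 17 of 17 lower beside 65.5%. Vehicle arrays themselves spread widely: the mean level of the 17 genes was 7.24, 6.36, 7.01, 7.66, 7.81, 8.15 and 8.51 on vehicle replicates 1 to 7, and 6.71, 6.6, 6.70 and 7.57 on Ang II replicates 1 to 4. Ang II replicate 4 was therefore inside the vehicle range, and vehicle replicate 2 was the lowest of the 11 arrays. How much macrophage RNA each preparation held was not measured apart from these genes, and its part in the difference was not tested.

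The same genes were read in cells without NOX2, on arrays that the wild-type comparison does not share. Their median Ang II difference over the 17 genes was 0.10, with 6 lower and 11 higher, beside 52.6% of all genes below 0 and 47.4% above it. The interaction of genotype and Ang II had a median of -0.74 over the list, with 3 genes at an unadjusted p below 0.05 beside 2.46% of all genes, and -0.91 with 9 genes beside 5.20% without vehicle replicate 2. This contrast contains the wild-type difference by which the list stands out. Its sign was thus partly fixed in advance, and nothing is read from it. Since all knockout arrays lay in set 1, the interaction was also taken within that set and without vehicle replicate 2: the median was -0.52, with 1 gene at an unadjusted p below 0.05 beside 7.81% of all genes. For Vcam1 the interaction was -1.20 (unadjusted p = 0.0485), -1.43 without vehicle replicate 2 (unadjusted p = 0.0119) and -1.09 within set 1 without that array (unadjusted p = 0.0853). Across all genes limma called 0 interactions at an adjusted p below 0.05 in each of the 3 fits, with smallest adjusted p of 1.0, 0.818 and 0.106.

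Erythroid genes went the other way. Of 19 listed, 11 were tested, 5 lay below the filter and 3 had no single-symbol probe set. The 11 tested genes all had a higher mean with Ang II, beside 49.7% of all genes, and also without vehicle replicate 2, beside 33.0%. Their median was 0.53, and 0.54 without that array. At an unadjusted p below 0.05 there were 4, against 0.976% of all genes in that direction, and 3 without that array, against 1.75%. None passed adjustment. Only 4 of the 11 had a vehicle mean above 5 and 2 were above 5 on all 11 arrays, so that others could pass the filter through the arrays on which they were high. A gene chosen in that way tends to be higher there, so the counts and medians over this list are a description and support nothing.

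Rhd was 4.82, 5.32, 6.79 and 5.72 with Ang II and 4.63, 3.79, 4.92, 4.12, 4.63, 4.35 and 4.22 with vehicle. Only Ang II replicate 1 lay within the vehicle range, and replicate 3 was well above the rest. The difference was 1.28 (SE 0.40, unadjusted p = 0.00295, adjusted p = 1.0) and 1.18 without vehicle replicate 2. Its vehicle values were all below 5, a level not told apart from background. Car1, a carbonic anhydrase of red cells, was 4.71, 6.10, 5.86 and 5.47 with Ang II against 3.77 to 4.92 with vehicle (median 4.09), a difference of 1.29 (SE 0.62), or 1.26 without vehicle replicate 2. Epb42, of the red cell membrane skeleton, differed by 0.72 (SE 0.32), or 0.75 without that array, and Trim10, an erythroid protein of the TRIM family, by 0.53 (SE 0.26), or 0.54.

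The erythroid median was not alike in the array sets. It was 1.10 in set 2, with 11 of 11 higher beside 34.5% of all genes, and -0.10 in set 1 without vehicle replicate 2, with 5 of 11 higher beside 47.9%. Seen by array, the median deviation of the members from the mean of the 6 vehicle arrays was -0.11 and 0.42 on Ang II replicates 1 and 2 and 1.19 and 1.09 on replicates 3 and 4, whereas the vehicle arrays ran from -0.36 to 0.24. In knockout cells, which lay in set 1, the median Ang II difference was 0.64 with 11 of 11 higher beside 47.4% of all genes, and the interaction had a median of -0.03. Within set 1, without vehicle replicate 2, the interaction median was -0.62, with 3 genes at an unadjusted p below 0.05 beside 7.81% of all genes. How many red cell precursors each preparation held was not measured apart from these genes, and its part in the result was not tested.

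Promoters of 3 of the erythroid genes that had the smallest p are shown because they hold AGATAA, the site bound by GATA factors, and the promoter of Mertk because it holds neither motif searched. Capitals mark the match, on either strand. They are RefSeq's, build GRCm38.p6, from 250 bases before the start site to 50 after it: Rhd at chr4:134864286-134864585 on the plus strand, Epb42 at chr2:121036828-121037127 on the minus strand, Trim10 at chr17:36869324-36869623 on the plus strand and Mertk at chr2:128698665-128698964 on the plus strand.
Rhd promoter: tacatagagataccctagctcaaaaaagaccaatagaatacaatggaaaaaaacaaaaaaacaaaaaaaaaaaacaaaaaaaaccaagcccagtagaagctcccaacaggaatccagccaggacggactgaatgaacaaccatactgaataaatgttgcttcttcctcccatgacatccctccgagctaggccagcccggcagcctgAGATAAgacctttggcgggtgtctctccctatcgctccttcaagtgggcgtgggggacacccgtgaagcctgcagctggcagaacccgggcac
Epb42 promoter: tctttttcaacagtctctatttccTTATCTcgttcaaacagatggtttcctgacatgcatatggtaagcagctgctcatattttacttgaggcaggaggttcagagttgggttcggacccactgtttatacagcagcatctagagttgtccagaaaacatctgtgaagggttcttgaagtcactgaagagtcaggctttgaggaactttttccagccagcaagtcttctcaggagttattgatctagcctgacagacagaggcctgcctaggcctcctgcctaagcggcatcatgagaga
Trim10 promoter: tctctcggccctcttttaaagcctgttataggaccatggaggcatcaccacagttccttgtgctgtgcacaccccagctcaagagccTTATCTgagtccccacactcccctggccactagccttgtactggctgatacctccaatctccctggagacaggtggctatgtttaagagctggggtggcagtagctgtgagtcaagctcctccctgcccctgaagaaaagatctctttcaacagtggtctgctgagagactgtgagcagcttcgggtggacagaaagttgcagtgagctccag
Mertk promoter: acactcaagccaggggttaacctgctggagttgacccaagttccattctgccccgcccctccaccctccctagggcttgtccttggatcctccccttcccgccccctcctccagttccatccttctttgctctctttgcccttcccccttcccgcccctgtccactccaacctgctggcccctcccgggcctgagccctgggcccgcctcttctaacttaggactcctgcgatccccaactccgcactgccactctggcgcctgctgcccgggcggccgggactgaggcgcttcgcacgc

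The matches start at -43 in Rhd, -226 in Epb42 and -163 in Trim10. Among tested erythroid genes 8 had a promoter in the table, 10 sequences in all, and 6 of these genes held AGATAA in at least 1 sequence. Counted by sequence, 6 of the 10 held it, beside 3672 of all 32851 promoters (11.2%). None of the 10 red pulp macrophage genes with a promoter held AGATAA or the GAAA repeat in this window. A match describes letters and not a bound site.

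**Figure D3:**
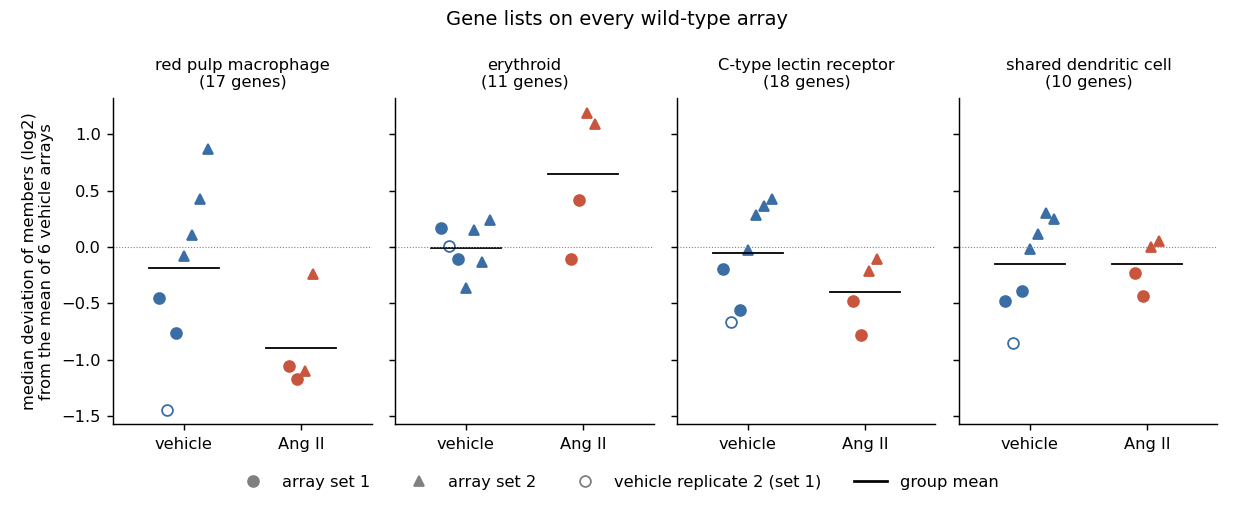
Median deviation, in log2 units, of the tested members of 4 gene lists from their mean over the 6 vehicle arrays other than replicate 2, one point for each wild-type array, with circles for set 1, triangles for set 2, an open circle for vehicle replicate 2 and a line at each group mean. Red pulp macrophage genes are low on Ang II replicates 1 to 3 (-1.05, -1.17 and -1.10) and lowest on vehicle replicate 2 (-1.44), erythroid genes are high on Ang II replicates 3 and 4 (1.19 and 1.09), while shared dendritic cell genes overlap.

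**Figure D4:**
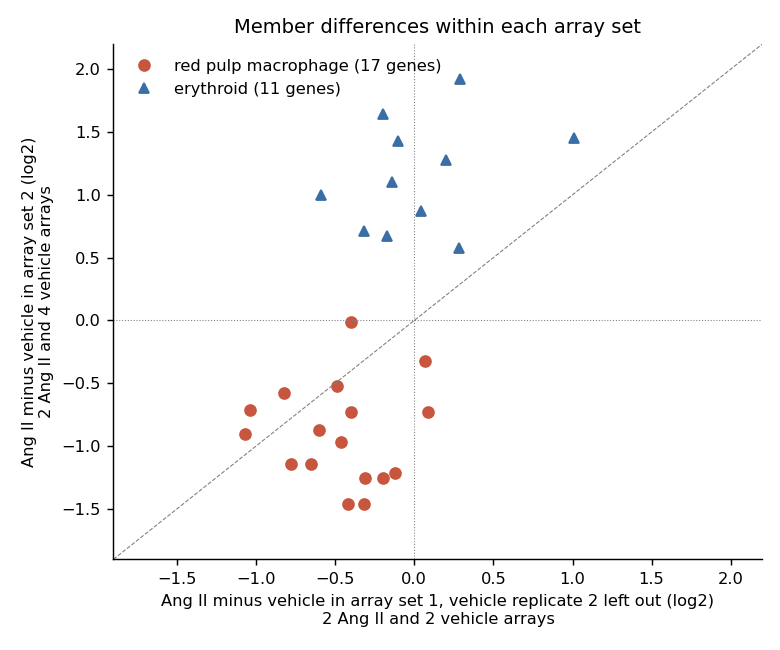
Ang II minus vehicle difference (log2) of each tested red pulp macrophage gene (circles) and erythroid gene (triangles) in array set 1 without vehicle replicate 2 (x axis, 2 against 2 arrays) and in array set 2 (y axis, 2 against 4 arrays), with the dashed line at equal differences. Of the 17 red pulp genes, 15 are below 0 in set 1 and 17 in set 2, whereas the erythroid genes are spread around 0 in set 1 and all above 0 in set 2.

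Other lists of phagocyte genes had lower medians than all genes. C-type lectin receptors, which bind sugars on microbes and dying cells, had 14 of 18 tested genes lower, beside 50.3% of all genes. Their median was -0.24 (-0.35 without vehicle replicate 2), and 3 genes were at an unadjusted p below 0.05, all lower, beside 1.57% of all genes. Without that array there were 5 lower, beside 6.79%, and 1 higher, beside 1.75%. Clec4n, the fungal receptor dectin-2, was 5.48, 4.36, 5.23 and 5.54 with Ang II and 4.73 to 7.17 with vehicle (median 6.28), a difference of -0.93 (SE 0.41, unadjusted p = 0.029, adjusted p = 1.0). All 4 vehicle arrays of set 2 and vehicle replicate 1 lay above every Ang II array, while vehicle replicates 2 and 3 did not, and the differences within the sets were -0.62 without vehicle replicate 2 and -1.31. Monocyte genes had 11 of 12 lower, beside 50.3% of all genes, and a median of -0.23 (-0.38). Of the 12, 1 was at an unadjusted p below 0.05 (3), in the lower direction, beside 1.57% of all genes (6.79%). Cd14, the lipopolysaccharide co-receptor, differed by -0.86 (SE 0.37, unadjusted p = 0.028), or -1.07 without vehicle replicate 2, -0.46 within set 1 and -1.39 within set 2. The 8 complement genes had a median of -0.22 (-0.36), where Cfb, factor B of the alternative pathway, differed by -0.46 (unadjusted p = 0.0308), or -0.51 without that array. This list shares C1qa, C1qb and C1qc with the red pulp macrophage list, so the 2 lists are not separate. Among 18 Toll-like receptor genes the median was -0.14 (-0.28), and Tlr2, which senses bacterial lipoproteins, differed by -0.38 (-0.52). The knockout medians of these lists were 0.05, 0.12, -0.16 and -0.04, in the same order.

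Plasmacytoid dendritic cell genes had a median of -0.20 (-0.34 without vehicle replicate 2), with 8 of 11 lower beside 50.3% of all genes. At an unadjusted p below 0.05 there were 2 (5), all lower, beside 1.57% of all genes (6.79%). The 2 were Cd300c and Atp1b1, and Atp1b1 is also counted in the salt and sodium list. The list median was -0.11 within set 1 without vehicle replicate 2 and -0.53 within set 2. Cd300c, an immunoglobulin-like receptor, was 5.77, 5.81, 6.96 and 6.31 with Ang II and 6.21 to 7.55 with vehicle (median 6.72). The difference was -0.74 (SE 0.24, unadjusted p = 0.00399, adjusted p = 1.0), -0.65 without vehicle replicate 2, -0.59 within set 1 and -0.47 within set 2. The knockout difference was 0.41 and the interaction -1.14 (unadjusted p = 0.00451, adjusted p = 1.0). Ccr9, the gut-homing receptor of these cells, differed by -0.57 (SE 0.38), or -0.81 without that array.

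Of 13 tested lipid mediator genes 2 were at an unadjusted p below 0.05, both lower, beside 1.57% of all genes, and 3 without vehicle replicate 2, beside 6.79%. Their median was -0.12 (-0.28), with 0.07 within set 1 and -0.40 within set 2, and 10 of 13 were lower (12), beside 50.3% of all genes (67.0%). Pla2g4a, the phospholipase that releases arachidonic acid, was 4.92, 5.04, 4.61 and 5.18 with Ang II and 4.47 to 6.27 with vehicle (median 5.84), a difference of -0.63 (SE 0.26, unadjusted p = 0.0243), or -0.81 without vehicle replicate 2, -0.24 within set 1 and -1.11 within set 2. Alox5, which makes leukotrienes from it, was dim, at 4.47 to 4.89 and 4.44 to 5.58, and differed by -0.45 (-0.37). The 15 antioxidant genes had a median of -0.04 (-0.14), with 10 lower (12), beside 50.3% of all genes (67.0%). At an unadjusted p below 0.05 there were 0 of them with all arrays and 3 without vehicle replicate 2, all lower, beside 6.79% of all genes.

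Fibroblastic stroma had the next highest median, 0.45 over 7 of 12 genes that were tested, and 0.46 without vehicle replicate 2. There were 6 and 7 genes higher, beside 49.7% and 33.0% of all genes. Within set 1, without vehicle replicate 2, the median was 0.02, with 4 of 7 higher beside 47.9% of all genes. Within set 2 it was 0.50, with 6 of 7 higher beside 34.5%. Ccl19, the chemokine that draws dendritic cells and T cells into the white pulp, was 7.37, 7.02, 6.77 and 6.17 with Ang II and 6.52, 7.21, 6.40, 5.95, 6.36, 5.43 and 5.52 with vehicle. Vehicle replicates 6 and 7 were lowest, and replicate 2 lay among the Ang II arrays. The difference was 0.64 (SE 0.27, unadjusted p = 0.0262) and 0.80 without vehicle replicate 2 (adjusted p = 0.441), 0.74 within set 1 and 0.66 within set 2. Of the 7 genes 1 was at an unadjusted p below 0.05 (2), beside 0.976% of all genes in that direction (1.75%). A vehicle mean above 5 was found for 5, and 1 was above 5 on all 11 arrays. Others could thus pass the filter through arrays on which they were high, so these counts and medians are a description and support nothing. The mean level of the list was 4.65 and 4.53 on vehicle replicates 6 and 7 and 5.65 to 6.00 on the other 5. The part of stromal cells in this difference was not tested.

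Several list medians changed sign with vehicle replicate 2. Over B cell genes the median was 0.16 with that array and -0.09 without it, and over oxidative phosphorylation 0.03 and -0.17. Over genes of the NF-kB pathway it was 0.08 and -0.11, and over NK cell genes 0.09 and -0.07. The median over all genes moved as well, from 0.00 to -0.09. With each array shifted to a common median and vehicle replicate 2 left out, these list medians were 0.01, -0.07, -0.01 and 0.03, in the same order. Immediate early genes, which respond fast to stimuli, had a median of -0.16 (-0.25), with 16 of 24 lower (19), beside 50.3% of all genes (67.0%). Their median was 0.02 within set 1 and -0.49 within set 2, and Ang II replicate 3 deviated by -1.12. Over 12 neutrophil genes the median was 0.17 (0.18), -0.59 within set 1 and 0.56 within set 2, and members ran from -0.83 (-1.08) for Cxcr2, a chemokine receptor, to 0.97 (0.95) for Camp, a granule protein. The mast cell and basophil list had only 2 tested genes, with a median of -0.27 (-0.19). Of the 40 lists examined, 28 had a median below 0 with all arrays and 37 without vehicle replicate 2.

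**Figure D5:**
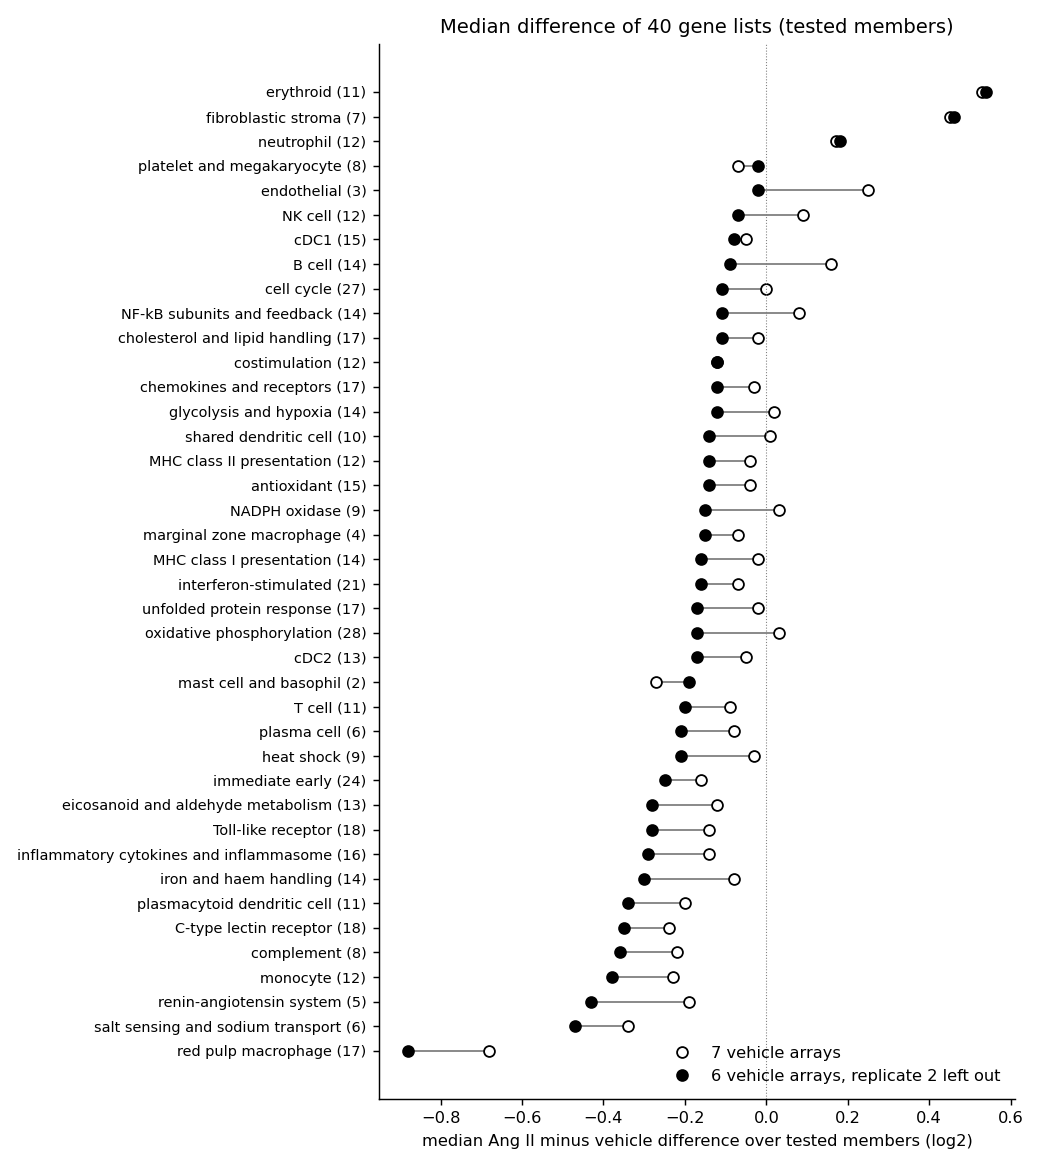
Median Ang II minus vehicle difference (log2) of the tested members of 40 gene lists, open circles with all 7 vehicle arrays and filled circles without replicate 2, with the number of tested genes in brackets and a dotted line at 0. Red pulp macrophage genes lie lowest (-0.68 and -0.88) and erythroid genes highest (0.53 and 0.54), and leaving out replicate 2 lowers most of the other medians.

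Cells given 2-HOBA with Ang II give further levels of the leading genes, with no comparison made here. On those 4 arrays Ctse was 6.30 to 7.27 and Rhd 3.85 to 4.70. Pcyox1 was 5.01 to 5.62 and Mertk 4.79 to 6.78. These genes were chosen for their levels on the arrays given Ang II alone, so nothing is read from a difference between the groups.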

How the data were processed

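Total RNA was labelled as biotin cRNA and hybridised to Affymetrix arrays, per the labels' protocols. The deposited values are log2 levels, normalized by the authors with RMA in Partek 6.6, per the submitters' processing notes, and run from 0.9 to 14.34. No detection call or probe-level file was used, so levels below about 5 are not told apart from background, and precision is limited by the number of arrays.

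Of 35556 probe sets, 21789 had 1 symbol, 1621 several and 12146 none, and 21698 of the first matched RefSeq by Entrez ID. For the 999 genes with several probe sets the brightest over all arrays was kept. Of 19938 genes, 10452 exceeded 5 on at least 3 arrays. limma 3.58.1 in R 4.3.3 fitted the 6 group means over all 28 arrays with moderated, two-sided tests and Benjamini-Hochberg adjustment over all tested genes. The fit was tested on simulated data. After the group mean of each gene was removed, same-numbered vehicle and Ang II arrays correlated at 0.23, 0.37, -0.35 and 0.35 for numbers 1 to 4. The vehicle array that correlated best with Ang II replicates 1 to 4 was number 3, 2, 5 and 7. The numbers were therefore not taken as pairs. No 2 arrays held identical values.

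Members and gene lists were chosen with earlier results of these data known. Genes named are 12 fixed ones, the 10 higher and 10 lower of smallest unadjusted p with and without vehicle replicate 2, and up to 4 of smallest p in each list described. Pseudogenes, predicted genes, small RNAs and the immunoglobulin, T cell receptor, olfactory, vomeronasal, histone and ribosomal protein families were counted but not named. Agtr1b had no single-symbol probe set. Alternatives covered filters, normalizations, array weights, blocks, array sets and each array left out.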

Additional observations from a re-analysis of the deposited data

Results flagged for a closer look

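Each of the following arrays lies farther from its group than Dixon's 95% limit for a group of that size. There were 8 such values among 72 group checks, and chance gives about 1 in 20. Vehicle replicate 2 accounts for 5: the mean log2 level of NADPH oxidase genes was 6.83 (nearest other array 7.82), Cybb was 6.34 (8.51), Cd80 was 3.79 (5.69), Btbd6 was 4.70 (5.27) and Tmem205 was 6.40 (5.60). Tmem273 was 6.67 on vehicle replicate 7, with the nearest other vehicle array at 5.77. Among Ang II arrays, Clec10a was 2.16 on replicate 2, with the nearest other at 3.49. The mean level of red pulp macrophage genes was 7.57 on Ang II replicate 4, against 6.71 on the nearest other.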

How the results depend on the processing

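No alternative called a gene at an adjusted p below 0.05, including quantile normalization, array weights and each array left out. The 266 genes at an unadjusted p below 0.05 became 613 with no filter, 50 with a filter above 7, 1433 with array weights, 122 with only the 11 arrays compared, 405 with the array set as a block, 1337 within array set 1 (890 without vehicle replicate 2) and 589 within set 2. Chosen after seeing the data, and without vehicle replicate 2, were the set block (807), a common array median (784) and quantile normalization (775). Leaving out each array gave 200 to 893, with 893 without vehicle replicate 2, 447 without Ang II replicate 3 and 415 without Ang II replicate 4. The 24 genes without overlap became 33 to 86, which fewer arrays can only raise: 38, 86, 47 and 41 without vehicle replicates 1, 2, 3 and 5, and 78, 55, 80 and 70 without Ang II replicates 1 to 4. With the replicate number as a block, which was not taken to pair these arrays, 280 genes had an unadjusted p below 0.05, of which 115 are among the 266.

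Among the fixed genes and those of smallest unadjusted p, 29 of 1162 differences changed sign, and the cause was not tested. Genes named only as members of a list were not counted. Some of those also changed sign, such as Ace, which became 0.21 within set 1, and Slc12a2, which became 0.28. Cybb became -0.38 with array weights, -0.31 within set 1 without vehicle replicate 2, -0.23 within set 2, and -0.26, -0.27 and -0.25 under the 3 added fits, with a range of -0.37 to 0.17 over single arrays left out. Cyba became -0.34 with array weights, -0.20 within set 2, and -0.07, -0.05 and -0.04 under the added fits, with a range of -0.15 to 0.30. Ncf1 became -0.06 within set 2. Cd80 became 0.02 under the replicate block and 0.38 within set 1. Cd86 became 0.15 under each of these and 0.17 within set 1 without vehicle replicate 2, with a range of -0.42 to 0.02. Snhg15 became -0 under the replicate block and -0.27 within set 1. Within set 1 Ifna9 became -0.12, Ccpg1 0.19, Qars 0.21 and Cln6 0.01. Of the list medians, 1063 moved by less than the SD of the list over the 7 vehicle arrays and 16 by more. That SD includes vehicle replicate 2, which widens it for many lists. A move below it does not show that a median is stable, and several changed sign without that array. The mast cell list had no tested member with a filter above 7. With 4 and 7 arrays the median SE of a difference was 0.20.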
